A study of Mus musculus with 5 samples.

Results

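The genes described here are 7 receptor tyrosine kinases, Egfr, Erbb2, Erbb3, Met, Kit, Flt1 and Kdr, and 2 growth factors, Pdgfa and Hbegf. They were chosen by name, with earlier results of these data known, and all 9 were found among the 55147 gene symbols of the deposited table. RNA was sequenced from E14Tg2a mouse embryonic stem (ES) cells, an unselected parent line (WT, 3 samples), and from C3G null cells of the same line (genotype C3G-/-, 2 samples). In the null cells a puromycin cassette replaced exons of the C3G gene, Rapgef1, and resistant colonies were picked, so that drug selection, clonal origin and loss of C3G cannot be told apart. The labels do not say which clone each null sample came from. Both genotypes were grown untreated on gelatin in serum with the cytokine LIF.

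Receptor tyrosine kinases sit in the plasma membrane. A ligand joins receptors into pairs, the kinases phosphorylate tyrosines on each other's tails, and adaptor proteins dock there and pass the signal to Ras, ERK and PI3K. Crk adaptors also bring C3G, an exchange factor for the small GTPase Rap1, to such sites. In ES cells, ERK signalling prepares cells to leave the pluripotent state, while LIF acts through STAT3 to hold them in it.

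The files give TPM, a transcript level in which reads are divided by transcript length and by the total of the sample. Small RNAs took 62.9% to 67.2% of the total in WT and 77.8% and 69.6% in the null samples, which lowers every other TPM there. All values below are therefore scaled TPM, after median-of-ratios scaling, which brings the typical gene to the same level in every sample, unless TPM as deposited is named. On the deposited scale the median change over tested genes was -0.55 (log2), against 0.0052 after scaling. Read depth is unknown from TPM, and the number of samples limits the precision. Changes were tested with limma on log2(scaled TPM + 1), two-sided, over the 12518 genes with at least 1 TPM in at least 2 samples, and Benjamini-Hochberg adjustment covered all of them. Adjusted p-values below come from this limma fit and are given with the standard error (SE) of the fold change where the gene is described in full. The pseudocount of 1 shrinks the fold changes of the receptors with low levels. Of these 12518 genes, 3843 (30.7%) passed an adjusted p of 0.05, with 2083 lower (16.6%) and 1760 higher (14.1%) in C3G null cells.

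The targeted gene Rapgef1 had 11.56, 10.31 and 9.64 deposited TPM in WT 1 to 3, and 3.92 and 5.55 deposited TPM in C3G null 1 and 2, summed over transcripts with and without the replaced exons, a change of -0.41 (log2) after scaling (adjusted p = 0.00444). Corrected for transcript length and GC it was -0.11 (adjusted p = 0.239). The ES cell marker Pou5f1 lay between 229.58 and 399.76 deposited TPM in the 5 samples. After scaling, of 8 ES cell markers 1 rose, Dppa5a, and none fell, while 5 lay above all WT samples in both null samples. The summed scaled level of the 8 was 1575 to 1974 in WT and 2751 and 2444 in null cells. As deposited none of the 8 passed. The deposited sum was 2102.27 to 2215.05 in WT and 1701.77 and 2214.53 in null cells, and 1 marker alone reached 1551.63 TPM in a sample. Summed levels of some lists of other cell types moved with genotype. Over all tested genes, both null samples lay below all WT samples in 29.3% and above them in 29.5%. All 7 fibroblast markers were lower in both null samples than in all WT samples, and their summed level was 3.90 to 4.57 in WT and 1.72 and 1.78 in null cells. This held for 4 of 6 trophoblast markers, with sums of 6.54 to 7.15 and 2.65 and 2.97, for 2 of 6 early mesoderm markers, with 5.67 to 6.89 and 2.89 and 4.04, and for 2 of 6 hematopoietic markers, with 1.92 to 1.99 and 1.41 and 1.60, 1 other lying above WT. The 6 germ cell markers were split, 3 below and 3 above all WT samples, of which 3 passed as lower and 2 as higher, with sums of 20.9 to 22.7 and 19.4 and 19.7. Higher in both null samples were 5 of 7 primitive endoderm markers, with 3.90 to 4.07 in WT and 6.95 and 9.37 in null cells, and 3 of 6 endothelial markers, with 8.10 to 8.42 and 12.7 and 13.5. As deposited, the primitive endoderm sums were 4.30 to 5.43 in WT and 4.30 and 8.49 in null cells. The endothelial sums were then 8.97 to 10.81 and 7.84 and 12.27. Sums of the fibroblast, trophoblast, early mesoderm, hematopoietic and germ cell lists stayed lower in both null samples. The counts for early mesoderm and hematopoietic markers are near the share of all tested genes. Under the filter of 1 TPM in 2 samples were 5 of 7 fibroblast, 3 of 6 trophoblast and 4 of 6 early mesoderm markers. So were 5 of 6 hematopoietic, 6 of 7 primitive endoderm and 4 of 6 endothelial markers. The part of these cell types in the results below was not tested. In bulk RNA, fewer cells of a type and less RNA per cell cannot be told apart.

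Of the 9 genes, 6 were lower in C3G null cells and none was higher. The ligands Pdgfa and Hbegf fell to about 0.369 and 0.332 of their WT level, Egfr and Flt1 to 0.250 and 0.146, and Erbb2 and Erbb3 to 0.525 and 0.615. Met did not pass the test and Kit overlapped between genotypes, while Kdr was too low to be tested. The 6 lower genes of 8 tested stand beside a background of 16.6% of all genes lower. Both null samples lay below all WT samples in 8 of the 9 genes, beside 29.3% of all tested genes (9 of 9 as deposited, beside 75.7%). Both of these counts include Kdr, which was not tested, whereas the shares are of tested genes only. Egfr, Erbb2, Met and Flt1 reached the filter of 1 TPM through WT samples alone, so their passing it already depended on a higher WT level. With TPM as deposited all 8 tested genes were lower, where 56.8% of all genes were.

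**Figure D1:**
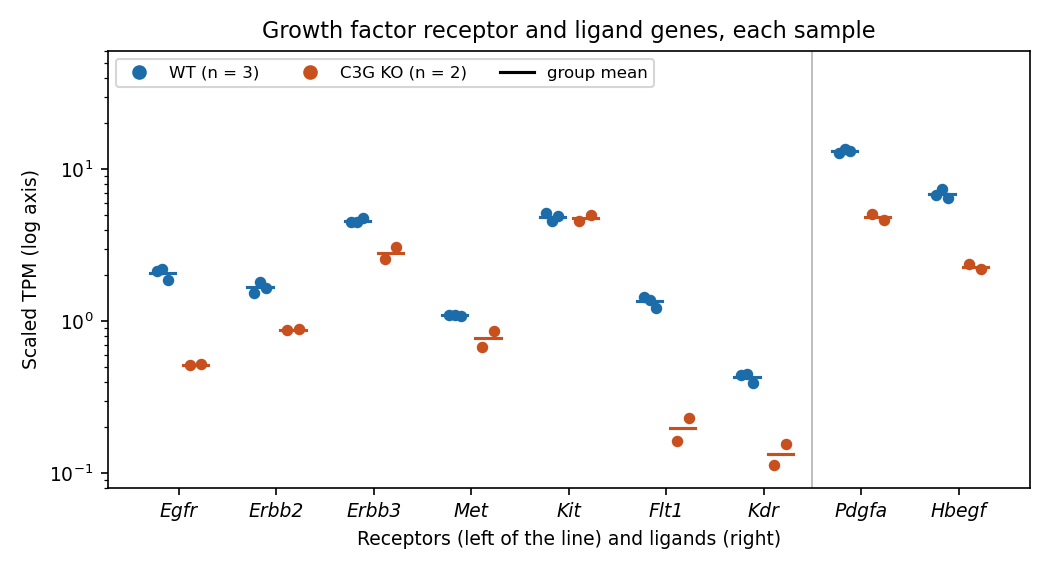
Scaled TPM (log axis) of the 7 receptor genes, left of the line, and the 2 ligand genes, right of it, with 1 point per sample (3 WT in blue, 2 C3G null, labelled C3G KO, in orange) and a bar at each group mean. Both null samples lie below all WT samples for every gene but Kit, where the groups overlap.

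Pdgfa (ENSMUSG00000025856, GRCm38 chromosome 5, 138976014 to 138997370, minus strand) encodes the A chain of platelet-derived growth factor, a dimeric ligand that acts on cells bearing PDGF receptors. It had 12.8, 13.6 and 13.1 scaled TPM in WT 1 to 3, and 5.08 and 4.64 in null 1 and 2. It was the most abundant of the 9 genes in every WT sample, and the null samples lay far below the WT range. The mean was 2.71-fold higher in WT than in null cells, with 2.52-fold to 2.94-fold over the 6 pairs of a WT and a null sample. Its log2 fold change of -1.27 (SE 0.067, adjusted p = 0.000208) ranked 127 from the lowest of all tested genes.

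Hbegf (ENSMUSG00000024486, chromosome 18, 36504927 to 36515805, minus strand) encodes heparin-binding EGF-like growth factor. It is made as a membrane protein, is cut off by ADAM proteases, and binds Egfr and Erbb4. Its level was 6.77, 7.37 and 6.46 scaled TPM in WT and 2.36 and 2.20 in null cells. As for Pdgfa, the null values were close to each other and well apart from WT, and the mean was 3.01-fold higher in WT (2.74-fold to 3.36-fold over the sample pairs). The log2 fold change was -1.26 (SE 0.075, adjusted p = 0.000311), rank 130 from the lowest.

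Egfr (ENSMUSG00000020122, chromosome 11, 16752203 to 16918158, plus strand) encodes the receptor of EGF, TGF-α and Hbegf. It had 2.13, 2.21 and 1.87 scaled TPM in WT and 0.517 and 0.519 in null cells, so the null samples were nearly equal and far below the lowest WT sample. The mean was 4.00-fold higher in WT (3.60-fold to 4.28-fold over the sample pairs), with a log2 fold change of -1.02 (SE 0.083, adjusted p = 0.000649). Egfr and the ligand Hbegf thus were both lower, each with no overlap between genotypes.

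Erbb2 and Erbb3, relatives of Egfr, work as partners. Erbb2 binds no ligand of its own, and Erbb3 binds neuregulins but has a weak kinase. Erbb2 (ENSMUSG00000062312, chromosome 11, 98412470 to 98437716, plus strand) had 1.54, 1.82 and 1.66 scaled TPM in WT and 0.873 and 0.883 in null cells. Its log2 fold change was -0.51 (SE 0.080, adjusted p = 0.00621). With values corrected for length and GC of the transcripts this fell short of the threshold, at -0.20 (adjusted p = 0.149). Erbb3 (ENSMUSG00000018166, chromosome 10, 128567523 to 128589652, minus strand) had 4.51, 4.47 and 4.73 scaled TPM in WT and 2.55 and 3.07 in null cells. Its log2 fold change with the pseudocount, -0.55 (SE 0.080, adjusted p = 0.00468), was about the size of that of Erbb2. The WT mean was 1.63-fold above that of null cells for Erbb3 and 1.90-fold for Erbb2, whose lower level the pseudocount shrinks more. The null samples of Erbb3 differed more from each other than those of Erbb2. Erbb4, the other member of the family, was at 0.01 deposited TPM in each WT sample and listed at 0 in both null samples.

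Flt1 and Kdr encode receptors 1 and 2 of vascular endothelial growth factor (VEGF), best known from the lining of blood vessels. Kdr carries most of the growth signal there, and Flt1 binds VEGF-A tightly and limits what reaches Kdr. Flt1 (ENSMUSG00000029648, chromosome 5, 147561604 to 147726011, minus strand) had 1.45, 1.37 and 1.22 scaled TPM in WT and 0.162 and 0.232 in null cells. The WT mean was 6.84-fold above that of null cells, the widest ratio among the 9 genes, but it rests on null levels of 0.10 and 0.21 deposited TPM and spanned 5.28-fold to 8.94-fold over the sample pairs. The log2 fold change was -0.97 (SE 0.086, adjusted p = 0.000929). Kdr (ENSMUSG00000062960, chromosome 5, 75932827 to 75978458, minus strand) stayed under 1 TPM everywhere, with 0.442, 0.451 and 0.390 scaled TPM in WT and 0.113 and 0.155 in null cells. Both null samples lay below WT, and the gene had no test in the filtered fit. In the fit with no filter, over 33039 genes, Kdr had a log2 fold change of -0.33 (adjusted p = 0.0217). Of the 6 endothelial markers, Emcn was at 0 in all samples and Cdh5, Tie1 and Erg stayed between 0.02 and 0.18 deposited TPM, while Pecam1 (6.08 to 9.70 deposited TPM) and Tek (1.58 to 2.30) were expressed and rose after scaling, by 0.58 and 0.50 (adjusted p = 0.00216 and 0.00378). With TPM as deposited Pecam1 and Tek overlapped between genotypes and did not pass.

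Met (ENSMUSG00000009376, chromosome 6, 17463800 to 17573980, plus strand) encodes the receptor of hepatocyte growth factor. Its WT samples were tightly grouped at 1.10, 1.09 and 1.08 scaled TPM, and the null samples had 0.679 and 0.861. Both lay below WT, but the log2 fold change of -0.24 (SE 0.083, unadjusted 95% interval -0.44 to -0.040) had an adjusted p of 0.0717. It was -0.55 with TPM as deposited (adjusted p = 0.00652), at the median of all genes on that scale, and -0.34 scaled to protein-coding TPM (adjusted p = 0.0325). The ligand of Met, Hgf, was at 0.01 deposited TPM or listed at 0.

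Kit (ENSMUSG00000005672, chromosome 5, 75574916 to 75656722, plus strand) encodes the receptor of stem cell factor, a class III receptor like those of PDGF that marks germ cells, melanocytes and blood progenitors. It had 5.12, 4.56 and 4.88 scaled TPM in WT and 4.54 and 4.97 in null cells, and the groups overlapped. The log2 fold change was -0.025 (SE 0.073, adjusted p = 0.827), with an unadjusted 95% interval of -0.20 to 0.15. As deposited, Kit fell by 0.59 on the log2 scale (adjusted p = 0.0253), again near the median of all genes on that scale. Its sign turned with quantile normalization and with the length and GC correction.

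**Figure D2:**
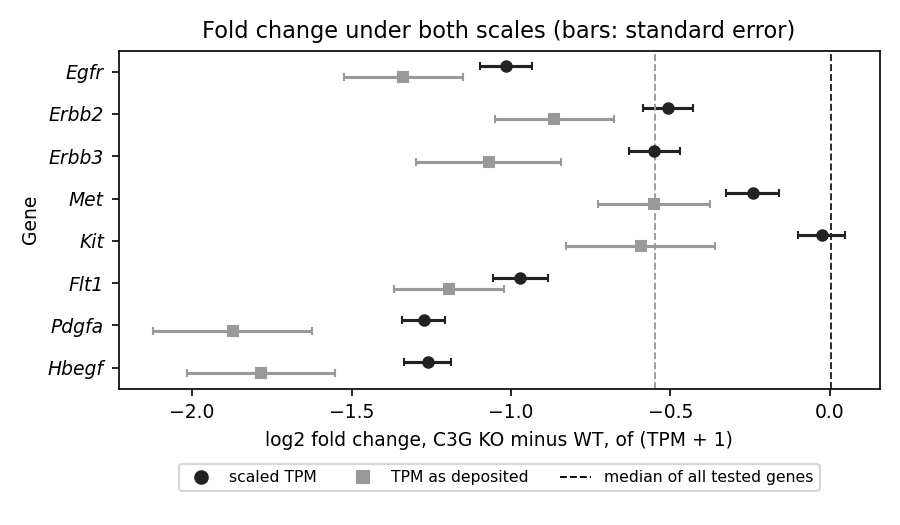
Log2 fold change (C3G KO minus WT, of TPM + 1) of the 8 tested genes after scaling (black circles) and with TPM as deposited (grey squares), with standard errors (SE) as bars and the median of all tested genes on each scale as a dashed line. Kit lies close to this median on both scales and Met on the deposited scale, at -0.55, and the other 6 genes lie to its left on both.

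In order of level per transcript length, WT samples ran Pdgfa, Hbegf, Kit, Erbb3, Egfr, Erbb2, Flt1, Met and Kdr, the same in all 3. Kit and Erbb3 were neighbours whose sample ranges overlapped in WT, 4.56 to 5.12 and 4.47 to 4.73 scaled TPM. In null cells Kit drew level with Pdgfa, at 4.54 and 4.97 against 5.08 and 4.64, and Kit had the highest level in null 2. Erbb3 then came before Hbegf, Erbb2 and Met before Egfr, Flt1 fell behind Met, and Kdr was last in all samples. The null samples of Met, 0.679 and 0.861, and Erbb2, 0.873 and 0.883, nearly touched.

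The table gives TPM per transcript, and the 9 genes have 43 annotated transcripts, 5 of which were listed at 0 in all samples. In a fit over the 25166 transcripts that passed the same filter, 11 transcripts of these genes were tested, and 7 were lower and none higher, beside 4.97% of all tested transcripts lower and 3.02% higher. Both null samples lay below all WT samples in 9 of the 11, beside 22.3% of all. Some of the 11, lower ones among them, reached the filter of 1 TPM through WT samples alone. Their passing it already depended on a higher WT level, which limits both comparisons with all transcripts. With 1 sample left out, 1 to 6 transcripts were lower, fewest without null 2. Scaled values of transcripts use their own scaling factors and differ slightly from those of genes. For Kit, Flt1, Egfr and Pdgfa the annotation holds a pair of coding forms whose products differ in a known way, and these are shown with their levels.

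Kit is shown because its 2 coding forms differ by a known small insert before the membrane-spanning part. Capitals mark the 12 bases, 4 codons in exon 9 (GRCm38 chr5:75639147-75639158, plus strand), that Kit-201 has and Kit-204 lacks, with 30 shared coding bases on each side in lower case.
Kit-201: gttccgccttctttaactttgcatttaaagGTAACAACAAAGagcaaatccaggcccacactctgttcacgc
Kit-204: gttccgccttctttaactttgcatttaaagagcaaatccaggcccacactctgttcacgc
Kit-201 had 1.74, 1.31 and 1.63 scaled TPM in WT and 1.06 and 1.40 in null cells, and Kit-204 had 2.62, 2.60 and 2.65 in WT and 2.34 and 2.90 in null cells. Neither passed the test, with log2 fold changes of -0.20 (adjusted p = 0.377) and -0.0062 (adjusted p = 0.978). Kit-201 made up 37.1% ± 3.30 (SD, n = 3) of the sum of these forms in WT and 31.8% ± 0.954 (SD, n = 2) in null cells, and both null shares, 31.1% and 32.5%, lay below the lowest WT share of 33.5%. Reads that do not cross the insert are compatible with both forms, so the split between them is an estimate of the authors' quantification.

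Flt1 makes a full-length receptor and a soluble form that binds VEGF and has no kinase. They share 1972 coding bases and part at the end of exon 13. Capitals mark the next bases of each form, the start of exon 14 in the full-length form (ENSMUST00000031653, chr5:147634434-147634523) and the 92 bases with which the coding sequence of the soluble form ends (ENSMUST00000110529, chr5:147639133-147639224), both on the minus strand.
Flt1 full-length: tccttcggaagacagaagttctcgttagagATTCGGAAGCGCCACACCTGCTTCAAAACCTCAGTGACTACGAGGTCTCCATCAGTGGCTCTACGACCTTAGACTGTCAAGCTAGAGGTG
Flt1 soluble: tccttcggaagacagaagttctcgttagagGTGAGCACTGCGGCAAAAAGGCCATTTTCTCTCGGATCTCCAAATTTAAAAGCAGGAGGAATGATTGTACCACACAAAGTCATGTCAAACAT
Both forms were lower in the null samples than in all WT samples. The full-length form had 0.614, 0.491 and 0.545 scaled TPM in WT and 0.0640 and 0.110 in null cells, and the soluble form had 0.569, 0.605 and 0.482 in WT and 0.0800 and 0.0770 in null cells. Neither reached 1 TPM, so neither was tested. The full-length form was 49.9% ± 4.49 (SD, n = 3) of the pair in WT and 51.6% ± 10.2 (SD, n = 2) in null cells, with overlapping samples.

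Egfr likewise has a full-length transcript, Egfr-201, and a short one, Egfr-202, that stops before the membrane-spanning part. Egfr-201 had 1.03, 1.07 and 1.15 scaled TPM in WT and 0.208 and 0.220 in null cells, and fell by 0.78 on the log2 scale (adjusted p = 0.0170). Egfr-202, under 1 TPM and not tested, had 0.421, 0.638 and 0.564 in WT and 0.112 and 0.220 in null cells. Capitals mark what follows the 1926 shared coding bases, the first 90 bases of exon 17 in Egfr-201 (chr11:16889914-16890003) and the last 39 coding bases of Egfr-202 in its exon 16 (chr11:16887187-16887225), both on the plus strand.
Egfr-201: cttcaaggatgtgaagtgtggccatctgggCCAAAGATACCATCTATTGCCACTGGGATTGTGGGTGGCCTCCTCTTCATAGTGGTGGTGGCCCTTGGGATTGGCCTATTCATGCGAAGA
Egfr-202: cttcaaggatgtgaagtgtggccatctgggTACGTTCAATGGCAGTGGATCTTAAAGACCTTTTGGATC
The full-length form was 66.9% ± 4.12 (SD, n = 3) of the pair in WT and 57.5% ± 10.6 (SD, n = 2) in null cells, with overlapping samples.

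Pdgfa has a long form, Pdgfa-201, whose extra exon encodes a basic tail that holds the growth factor near the cell, and a short form, Pdgfa-202, which lacks it. Capitals mark the coding bases that follow the 580 shared ones, 53 in exon 6 of Pdgfa-201 (chr5:138978638-138978690) and 8 in the last exon of Pdgfa-202 (chr5:138977220-138977227), both on the minus strand.
Pdgfa-201: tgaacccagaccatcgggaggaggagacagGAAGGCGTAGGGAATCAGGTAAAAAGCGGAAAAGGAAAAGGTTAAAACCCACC
Pdgfa-202: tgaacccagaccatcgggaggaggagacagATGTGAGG
Short Pdgfa-202 was the most abundant, with 6.79, 7.54 and 7.31 scaled TPM in WT and 2.66 and 2.61 in null cells, and fell by 1.18 on the log2 scale (adjusted p = 0.00429). Long Pdgfa-201 had 2.05, 2.43 and 1.25 in WT and 0.944 and 0.902 in null cells, and with this spread in WT its log2 fold change of -0.57 did not pass (adjusted p = 0.136). The long form made up 20.7% ± 5.35 (SD, n = 3) of the pair in WT and 26.0% ± 0.365 (SD, n = 2) in null cells. Both null shares, 26.2% and 25.7%, lay above the WT shares of 14.6% to 24.4%. Pdgfa-203 and Pdgfa-204, which have 196 codons as Pdgfa-202 has, are not counted in this pair. Among the other transcripts, Pdgfa-204, Pdgfa-207, the only transcript of Erbb3, Hbegf-201 and Hbegf-203 fell, by 0.55 to 1.09 on the log2 scale with adjusted p between 0.00851 and 0.0495, and the coding transcript of Erbb2 did not pass (-0.43, adjusted p = 0.102).

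**Figure D3:**
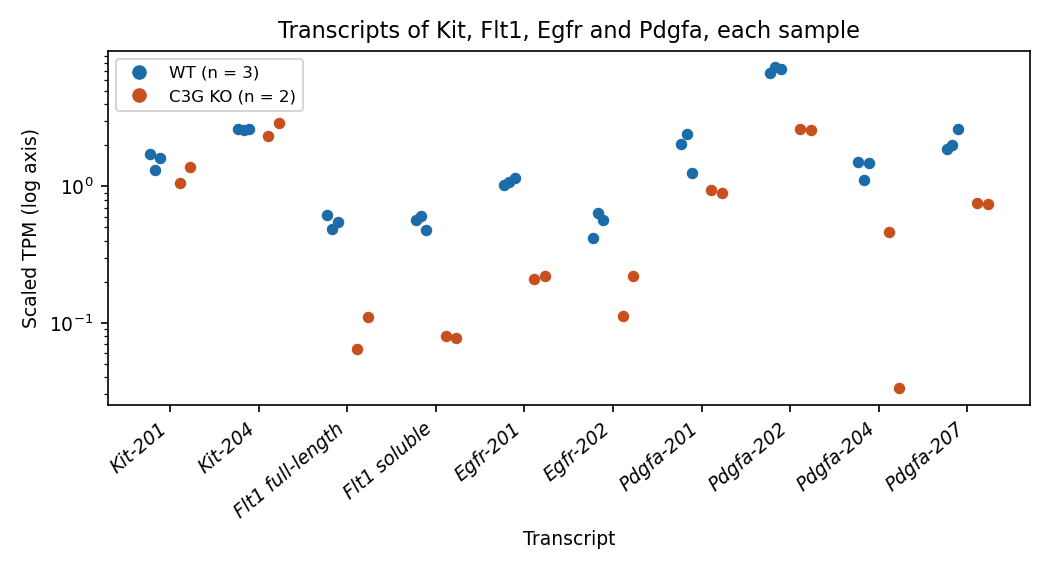
Scaled TPM (log axis) of 10 coding or major transcripts of Kit, Flt1, Egfr and Pdgfa, 1 point per sample, 3 WT in blue and 2 C3G null, labelled C3G KO, in orange. The groups overlap for Kit-201 and Kit-204, and null samples lie below all WT samples for the other 8, with Pdgfa-204 in null 2 lowest at 0.0330.

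Promoter sequences of RefSeq (GRCm38.p6, 250 bases before the start) were searched for 7 of the 9 genes. The set of promoters searched was incomplete and held none for Hbegf or Erbb3. The shares given here are of this set only. The GC box GGGCGG, a motif of Sp1-type factors, was found on either strand in 6 of the 7 genes, all but Erbb2. Counted by promoter this was 8 of 9, beside 32.7% of the 32851 promoters searched. The 2 promoters of Kit, starting at 75574737 and 75574741, overlap and hold the same GC box, which is thus counted for each. The promoters of these genes were 60.8% to 74.0% GC, and the promoters searched were not matched for GC. Whether the share differs from that of promoters with like GC was not tested. Kit, whose levels overlapped, holds a GC box too. An AP-1 motif, TGANTCA, was found only in Met (6.75% of the promoters searched), an ETS motif, CCGGAAG, only in Egfr (6.91%), and TATAAA only in Flt1 (12.4%). Each was searched on both strands, and no match overlapped one of another motif. The promoters of Flt1 (chr5:147726012-147726261) and Pdgfa (chr5:138994945-138995194, 1 of 2 listed), both on the minus strand, are shown as the receptor with the widest ratio and the ligand with the largest log2 fold change, with GC boxes in capitals.
Flt1: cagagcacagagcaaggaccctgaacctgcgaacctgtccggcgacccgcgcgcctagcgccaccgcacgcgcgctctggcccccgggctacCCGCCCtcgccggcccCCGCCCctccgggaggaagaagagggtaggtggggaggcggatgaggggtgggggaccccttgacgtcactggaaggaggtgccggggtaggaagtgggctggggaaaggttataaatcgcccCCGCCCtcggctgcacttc
Pdgfa: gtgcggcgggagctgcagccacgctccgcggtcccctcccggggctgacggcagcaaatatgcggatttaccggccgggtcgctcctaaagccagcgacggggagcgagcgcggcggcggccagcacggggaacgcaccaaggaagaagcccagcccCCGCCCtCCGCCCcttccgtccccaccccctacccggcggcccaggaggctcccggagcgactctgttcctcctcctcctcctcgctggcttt
A match is a description of the letters and not a site of binding.

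The families of these receptors and ligands were then listed in full. Nrp2, a co-receptor of VEGF and semaphorins, fell from 6.97 ± 0.345 scaled TPM (SD, n = 3) to 2.91 ± 0.155 (SD, n = 2), a log2 fold change of -1.03 (adjusted p = 0.000420). Pdgfra, the receptor that Pdgfa binds, went the other way, with 0.47, 0.39 and 0.50 deposited TPM in WT and 0.75 and 1.49 in null cells. It is also 1 of the 7 primitive endoderm markers. It was under the filter, and the fit with no filter gave it 0.82 (adjusted p = 0.0185). Of the 24 genes of these families under the filter, leaving out Kdr, it was the 1 that was higher in that fit, beside 3.67% of all genes, and 2 were lower, beside 4.95%. These were Nrp1, a co-receptor of VEGF, with 0.61, 0.46 and 0.42 deposited TPM in WT and 0.04 and 0.05 in null cells (log2 fold change -0.40, adjusted p = 0.00941), and Pgf, a ligand of Flt1, with 0.80, 0.70 and 0.75 in WT and 0.08 and 0.14 in null cells (-0.49, adjusted p = 0.0153). Pdgfrb, Csf1r, Flt3, Flt4 and Mst1r, also under 1 TPM in all samples, did not pass. Kitl, the ligand of Kit, was near the filter, with 1, 0.81 and 0.75 deposited TPM in WT and 0.35 and 0.44 in null cells.

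Of the other 24 ligands of these families, 8 were tested, and 4 were lower and 2 higher, beside 16.6% and 14.1% of all genes. Csf1, Pdgfb and Nrg1 reached the filter of 1 TPM through WT samples alone, so their passing it already depended on a higher WT level. Csf1, the ligand of the macrophage receptor Csf1r, had 2.34, 2.47 and 2.40 deposited TPM in WT and 0.02 and 0.07 in null cells (log2 fold change -1.50, adjusted p = 0.000347). Pdgfb, the B chain of PDGF, fell by 0.59 on the log2 scale (adjusted p = 0.00475), Nrg1, a ligand of Erbb3, by 0.35 (adjusted p = 0.0398), and Vegfc, a ligand of Flt4, by 0.27 (adjusted p = 0.0466). Nrg4, a ligand of Erbb4, rose by 0.47 (adjusted p = 0.00738) and Pdgfc, which also binds Pdgfra, by 0.39 (adjusted p = 0.0126). The calls of Nrg1 and Vegfc were lost in most fits without 1 sample, with adjusted p up to 0.145 and 0.165, and that of Pdgfc without null 2 (adjusted p = 0.0555). The rise of Pdgfc turned to -0.18 with TPM as deposited, and Nrg4 was then at 0.013. Vegfa, the main ligand of Kdr, with -0.20, and Vegfb, which binds Flt1, with 0.30, did not pass (adjusted p of 0.115 and 0.0852). With TPM as deposited Vegfb was at -0.27 and Vegfa passed, at -0.77 (adjusted p = 0.00409).

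Across all 58 receptor tyrosine kinases of the mouse list, 26 were tested, with a median log2 fold change of -0.43. Of these 14 were lower, 2 higher and 10 did not pass, beside 16.6% of all genes lower and 14.1% higher. Axl and some others of the lower receptors, Egfr, Erbb2 and Flt1 among them, reached the filter of 1 TPM through WT samples alone. Without the 7 receptors described above, 10 of 20 were lower and 2 higher, and the median was -0.36. Axl, a receptor of the vitamin K-dependent protein Gas6, had the largest fall of the list, from 3.21 ± 0.608 scaled TPM (SD, n = 3) to 0.385 ± 0.0181 (SD, n = 2), a log2 fold change of -1.59 (adjusted p = 0.000601). Ptk7, a kinase-dead co-receptor of Wnt signalling, came next with -1.02 (adjusted p = 0.000349), just ahead of Egfr. This order holds for log2(scaled TPM + 1), where the pseudocount shrinks low genes. The WT mean was 2.13-fold above that of null cells for Ptk7, but 4.00-fold for Egfr and 6.84-fold for Flt1. The 2 that rose were Tyro3, a relative of Axl, by 0.63 (adjusted p = 0.00105), and Tek, the angiopoietin receptor, by 0.50 (adjusted p = 0.00378). Both rises were near 0 with TPM as deposited, at 0.026 and 0.046.

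Proteases and partners that free EGF-type ligands such as Hbegf from the membrane were lower in 5 of 8 tested of 9. None was higher, and the median was -0.48. Among all genes 16.6% were lower and 14.1% higher. Rhbdf1, an inactive rhomboid that brings the protease Adam17 to the cell surface, fell by 1.07 on the log2 scale (adjusted p = 0.000305), Adam9 by 0.59 (adjusted p = 0.00205) and Adam15 by 0.54 (adjusted p = 0.00712). Adam17 itself, the main protease of this group, had 6.22 ± 0.306 scaled TPM (SD, n = 3) in WT and 5.93 ± 0.109 (SD, n = 2) in null cells and did not pass.

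Among 29 adaptors that dock on the receptors, 24 were tested. Of these 7 were lower and 1 higher, beside 16.6% and 14.1% of all genes, and the median was -0.17. Grb10, an imprinted adaptor that dampens insulin and IGF signalling, had 29.17, 30.20 and 28.19 deposited TPM in WT and 1.15 and 1.72 in null cells, with a log2 fold change of -3.12 after scaling (adjusted p = 2.42e-05). Irs2 and Irs1, docking proteins of the insulin and IGF1 receptors, fell by 1.09 (adjusted p = 0.000568) and 0.72 (adjusted p = 0.00230). Irs1 reached the filter of 1 TPM through WT samples alone. Shc1, an adaptor of Egfr and Erbb2, fell by 0.42 (adjusted p = 0.0171), and this call was lost without WT 2, null 1 or null 2 (adjusted p = 0.0583, 0.0757 and 0.0523). Grb2, Sos1, Crk and Crkl, the adaptors and the Ras exchange factor that lead from receptors to Ras and C3G, did not pass, with log2 fold changes of -0.25, -0.18, -0.063 and -0.11 and adjusted p between 0.149 and 0.566. With TPM as deposited these 4 passed, between -0.87 and -0.72. Grb7, an adaptor of Erbb2, rose by 0.29 (adjusted p = 0.0145) but was at -0.33 with TPM as deposited and did not pass without WT 2 or null 2 (adjusted p = 0.0638 and 0.0602).

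Of 23 genes listed as negative regulators of these receptors, 21 were tested. Among them 9 were lower and none higher, beside 16.6% and 14.1% of all genes, and the median was -0.16. Dok2, a docking protein that restrains Ras, fell by 1.76 on the log2 scale (adjusted p = 0.000913). Tsc22d1, a transcriptional regulator induced by TGF-β, fell by 1.44 (adjusted p = 0.000315), and Errfi1, which binds and blocks the kinase of Egfr and is itself induced by EGF, fell by 0.94 (adjusted p = 0.000392). The ubiquitin ligase Cbl, which tags active Egfr, Kit and Met for removal, had 8.21 ± 0.354 scaled TPM (SD, n = 3) in WT and 8.06 ± 0.931 (SD, n = 2) in null cells and did not pass. Taking all 147 listed genes, 42 of 90 tested were lower and 5 higher after scaling, beside 16.6% and 14.1% of all genes. Some of the lower ones reached the filter of 1 TPM through WT samples alone. With TPM as deposited 79 were lower and none higher, beside 56.8% and 1.45%.

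**Figure D4:**
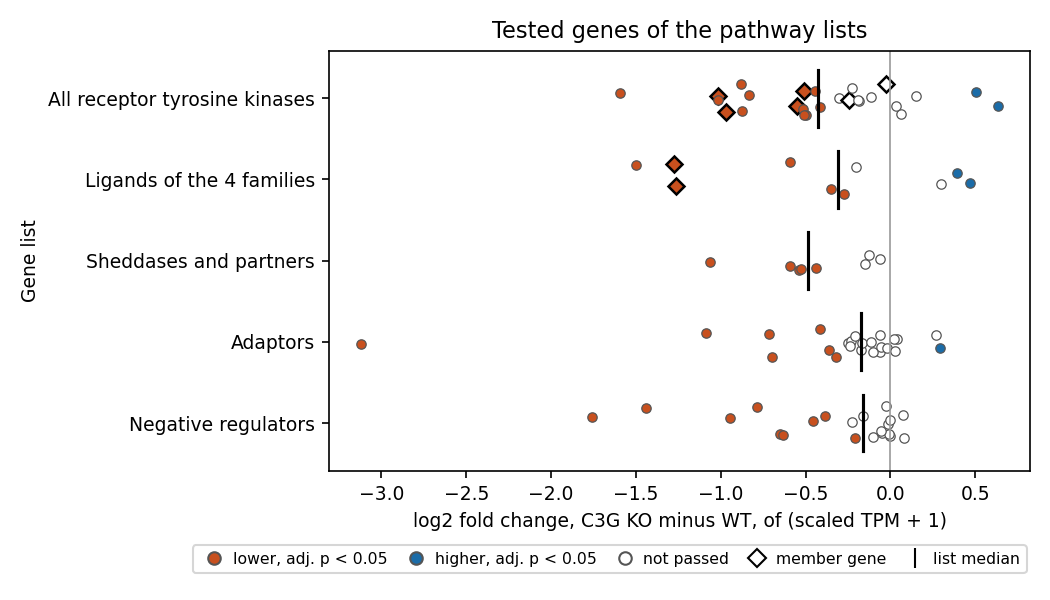
Log2 fold change (C3G KO minus WT, of scaled TPM + 1) of each tested gene in 5 lists, in orange where lower and in blue where higher at an adjusted p under 0.05, with diamonds for the genes described one by one and a vertical bar at the median of each list. The medians run from -0.48 for the sheddases and their partners to -0.16 for the negative regulators, and Grb10 stands alone at -3.12.

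The genes nearest in pattern to each tested gene over the 5 samples were found among tested genes with a mean of at least 5 scaled TPM, by the mean absolute difference between their deviations on the log2(scaled TPM + 1) scale. Pdgfa and Hbegf were each other's nearest gene, at a difference of 0.0334, followed for both by Polr3d, a subunit of RNA polymerase III. Egfr and Flt1 shared Lrrfip1 and the AP-1 gene Junb as their nearest, at 0.0176 to 0.0314. Erbb2 was nearest to Bex3 and Tfpi (0.0153 and 0.0221), Erbb3 to Jup, which encodes plakoglobin, and Ints9 (0.0188 and 0.0209), Met to Pmm2 and Camsap2 (0.00829 and 0.0142), and Kit to Lrrfip2 and Gon4l (0.00593 and 0.0123). The 5 samples fall into 2 groups, and the measure includes the difference between them.

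The result for each gene was set against other ways of processing the values. Pdgfa, Hbegf, Egfr and Flt1 passed the threshold of 0.05 and were lower in each alternative in which they were tested, 16 for the ligands and 15 for the receptors, with log2 fold changes from -1.87 to -0.88 for Pdgfa, -1.78 to -0.70 for Hbegf, -1.81 to -0.36 for Egfr and -2.29 to -0.29 for Flt1. The ends of these ranges come from the pseudocount or the deposited scale. Egfr and Flt1 entered all of their alternatives but the fit with no filter through WT samples alone. Erbb3 was lower in 15 of 16 and Erbb2 in 13 of 15, and Met passed in 2 of 15. The 7 receptor genes have long transcripts, with a mean length of 4667 to 6116 bases weighted by TPM, against a median of 2187 over all tested genes, whereas Pdgfa and Hbegf have 1654 and 2153.

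**Figure D5:**
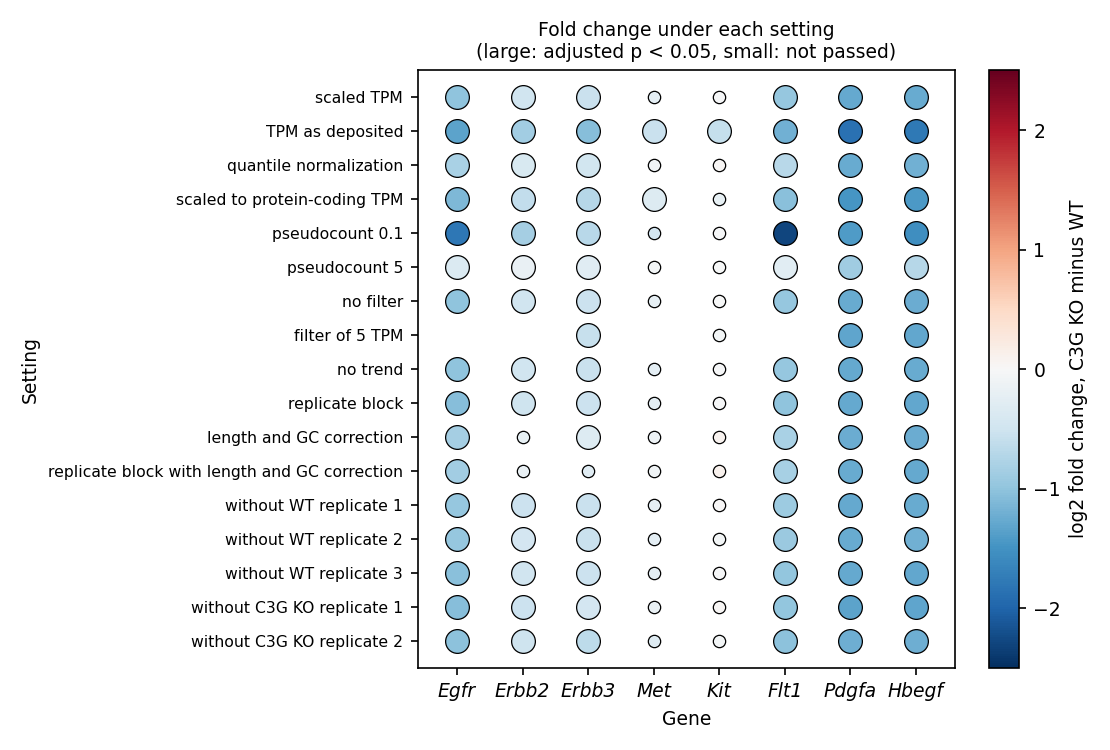
Log2 fold change (colour, C3G KO minus WT) of the 8 tested genes under scaled TPM and each alternative, with large circles for an adjusted p under 0.05 and small ones for tests not passed. Empty places are genes under the filter of 5 TPM, the 5 bottom lines leave out 1 sample each, and Pdgfa, Hbegf, Egfr and Flt1 have large blue circles wherever they were tested.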

How the data were processed

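Total RNA of E14Tg2a ES cells, 3 WT and 2 C3G null samples, was sequenced as paired-end reads. The authors checked reads with FastQC, aligned them with STAR to GRCm38 and deposited TPM for 142647 Ensembl transcripts, rounded to 2 decimals. The submitters' processing notes name bcl2fastq 2.20, FastQC 0.11.7, STAR 2.5.1b and RSEM 1.2.31. TPM hold no read numbers, so no depth and no counting interval can be given.

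Transcripts were matched to GENCODE M21 (141524 of 142647) and TPM were summed per symbol. Groups came from the sample labels. The study calls the samples of each genotype independent and derived several null clones, but the sources used here do not say which clone or culture each sample came from, so p-values measure the spread between these samples. Genes with at least 1 TPM in at least 2 samples were compared with limma 3.58.1 (R 4.3.3) on log2(TPM + 1) after median-of-ratios scaling, with a mean-variance trend (prior degrees of freedom 3.11, residual 3). With TPM as deposited the prior was infinite, so those p-values do not reflect the spread of an individual gene. The Benjamini-Hochberg threshold was 0.05. The script was tested on simulated data. Figures used matplotlib 3.10.9.

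The genes and lists were chosen with earlier results of these data known, so counts over them are descriptions and no list was tested as a set. Named beside the 9 genes were Rapgef1, family genes with 1 TPM in 2 samples, in 4 lists the 3 genes that rose most and the 3 that fell most among those passing the threshold, Crk, Crkl, Grb2, Shc1 and Sos1, and the nearest genes in pattern. Pou5f1, Dppa5a, Emcn, Cdh5, Tie1, Erg, Pecam1, Pdgfra, Nrp1, Pgf, Hgf, Kitl, Adam17 and Cbl were named after their values were seen. Alternatives were TPM as deposited, quantile normalization, scaling to protein-coding TPM, a pseudocount of 0.1 or 5, a filter of 5 TPM or none, no trend, a replicate block, a length and GC correction, both together, and each sample left out.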

Additional observations from a re-analysis of the deposited data

How the results depend on the processing

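Only 2 null samples, low TPM of the receptors and unknown depth limit these results. The lower level of Pdgfa, Hbegf, Egfr and Flt1 passed the threshold in each alternative in which they were tested. For Egfr and Flt1, all of these but the fit with no filter kept the filter of 1 TPM. Both reached that filter through WT samples alone, and neither reached the filter of 5 TPM. With TPM as deposited, all genes split into 7109 lower and 181 higher and the listed genes into 79 lower and 0 higher, Met was at -0.55 and Kit at -0.59, both past the threshold, and Pdgfc (-0.18), Vegfb (-0.27) and Grb7 (-0.33) changed sign. This scale carries the shift of the median of all genes by -0.55. Scaling to protein-coding TPM gave 3732 lower and 707 higher genes, 3 listed genes higher, and -0.34 for Met (adjusted p = 0.0325 from limma). Kit turned to 0.022 with quantile normalization. The filter of 5 TPM left 4 of the 9 genes and called 3 of them lower, beside 1348 lower and 1122 higher genes in all and 25 and 3 listed genes, fewer genes being tested. The length and GC correction gave 9 listed genes higher, -0.20 for Erbb2, which no longer passed (adjusted p = 0.149), 0.096 for Kit and 0.032 for Crkl. The cause of these other shifts was not tested.

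The samples of both genotypes share only replicate numbers. Same-numbered samples had correlations of -0.18 and 0.18 in their deviations from the group mean. With 2 null samples these deviations mirror each other, so each WT sample has opposed correlations with null 1 and null 2. The correlations therefore cannot decide whether the numbers pair the samples, which were left unpaired in the main fit. With the replicate block the log2 fold changes were -1.06 for Egfr, -0.51 for Erbb2, -0.53 for Erbb3, -0.25 for Met, -0.021 for Kit, -1.01 for Flt1, -1.28 for Pdgfa and -1.30 for Hbegf, and no call among them changed. With the block and the length and GC correction together, 1341 genes in all and 24 listed genes were lower, Erbb2 (-0.18, adjusted p = 0.285) and Erbb3 (-0.29, adjusted p = 0.0636 from limma) no longer passed, and Kit (0.11) and Crkl (0.042) changed sign.

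With 1 sample left out, 6 of the 9 genes were lower each time. A lone null sample was then assumed to vary like WT. All genes gave 1385 to 1880 lower and 909 to 1579 higher, both fewest without WT replicate 2 (981 and 990 higher without null 1 or null 2), listed genes gave 33 to 39 lower and 3 to 6 higher, with 3 higher without null 2, Kit ran from -0.075 to 0.030 and Crk from -0.14 to 0.014. Of the transcripts, 1 to 6 were lower, against 7 with all samples, with 3 without WT replicate 1, 2 without WT replicate 2, 2 without null 1 and 1 without null 2. Of 455 further values, for 29 other named genes, 403 kept direction and side of the threshold, 37 lost the call, 9 gained it and 6 changed sign.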
